A study of Saccharomyces cerevisiae with 2 samples.

Results

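The strains described here are the 9 yeast deletion strains that lack ALG3, ALG5, ALG6, ALG8, ALG9, ALG12, DIE2, OST3 or OST6, genes of the late steps of lipid-linked glycan assembly and of oligosaccharyl transfer. They were chosen by gene function and make up 9 of the 5325 named strains with a value. The readout was the relative abundance of each strain in a pool that overexpressed LCD1, set against a pool with a control plasmid, measured through DNA tags on 2 two-colour arrays (array 1 and array 2). Per the labels, 1 pool of 5896 heterozygous diploid Saccharomyces cerevisiae knockouts, able to be turned into haploids, received a GAL1-LCD1 plasmid for the LCD1 pool or a control plasmid for the control pool, each with URA3 as its marker. Both pools were sporulated and grown as selected haploids for 3 days at 30 °C with 2% galactose as sole carbon source, so every strain of either pool carried its own gene deletion and a plasmid. The LCD1 pool was read in Cy3 and the control pool in Cy5 on both arrays, hence dye and pool cannot be told apart, and no label says whether the arrays came from separate cultures. Any p-value below therefore rests on no more than these 2 arrays, and the spread between them may be technical. The limma fits below take the spread of each strain partly from that of all named strains. A fit of single tag readings also takes in the spread between tags.

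N-linked glycosylation begins with a branched sugar tree built on the lipid dolichol at the endoplasmic reticulum (ER). Inside the ER, mannosyltransferases and then glucosyltransferases complete the tree, and oligosaccharyltransferase (OST) moves it onto asparagine residues of new proteins. Loss of a late sugar leaves a shorter glycan that OST transfers less well, and the genes of these late steps are known to be dispensable for growth of yeast haploids. LCD1, also named DDC2, encodes the binding partner of the checkpoint kinase Mec1. The title names synthetic lethality, which is the loss of strains whose deletion cannot be combined with LCD1 overexpression.

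Values are log2 ratios with the LCD1 pool on top and the control pool below, each tag block of each array centred on its own median, and a strain value is the mean of its tag values on an array. Means are given ± SD over arrays (n = 2). The direction of the deposited ratio is not stated. It was taken as control over LCD1 pool and turned round, because Cy5 held the control pool and because the strain that lacks LCD1 itself, which needs the plasmid to live, then stood at 2.63 ± 0.0086 and ranked 1 of 5325 from the top. Its tags disagreed in size, at 4.24 and 4.97 for the first and 1.01 and 0.30 for the second on arrays 1 and 2, so the SD over arrays hides a span of 4.67. On single arrays it ranked 5 and 8 from the top. Since it set the sign, its rank is no independent evidence. That direction is likely, not settled, and with the other one every sign below would be opposite. A strain carries a pair of tags, read here as the first and the second block of features, and no source says which is upstream.

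The strains without DIE2 and OST3 stood lowest of the 9, at 61.1% and 62.0% of their relative abundance in the control pool, and the strain without OST6 stood highest, at 1.465 times. The remaining 6 lay between these, with means of -0.47 to -0.045. Over the 9 strains 8 means were below 0 and 1 was above, with a median of -0.28, where 45.9% of all named strains had a mean below 0, 54.1% had one above, and the median of all was 0.036. Of the 9 strains, 7 were below 0 on both arrays (all strains 34.0%) and 1, OST6, was above 0 on both (all strains 37.7%). On all 4 tag values 3 were below 0 (ALG8, DIE2 and OST3, all strains 16.4%) and 1, again OST6, was above 0 (all strains 16.8%).

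No strain of the 9 reached a 2-fold difference. The size rule asks for a 2-fold difference or more, of 1 sign, on array 1 and on array 2. It took 0 of 9 on the lower side (all strains 1.82%) and 0 of 9 on the higher side (all strains 0.695%). At 1.5-fold on both arrays, DIE2 and OST3 passed on the lower side (2 of 9, all strains 4.34%) and 0 of 9 on the higher (all strains 3.87%). limma, fitted over all named strains, called 0 of the 9 at an adjusted p under 0.05 and also 0% of all strains. At an unadjusted p under 0.05 limma gave 3 of the 9 (DIE2, OST3 and OST6), where it gave 22.3% of all strains. Fitting the 4 tag readings of a strain separately, limma called 0 of the 9 and 0.451% of all strains, although tags of an array share their pools and its p-values are too small. The series had 2 arrays with 20000 and 20032 features with a value and no intensities in the table used here, so signal over background is unknown and the number of arrays limits the precision.

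**Figure D1:**
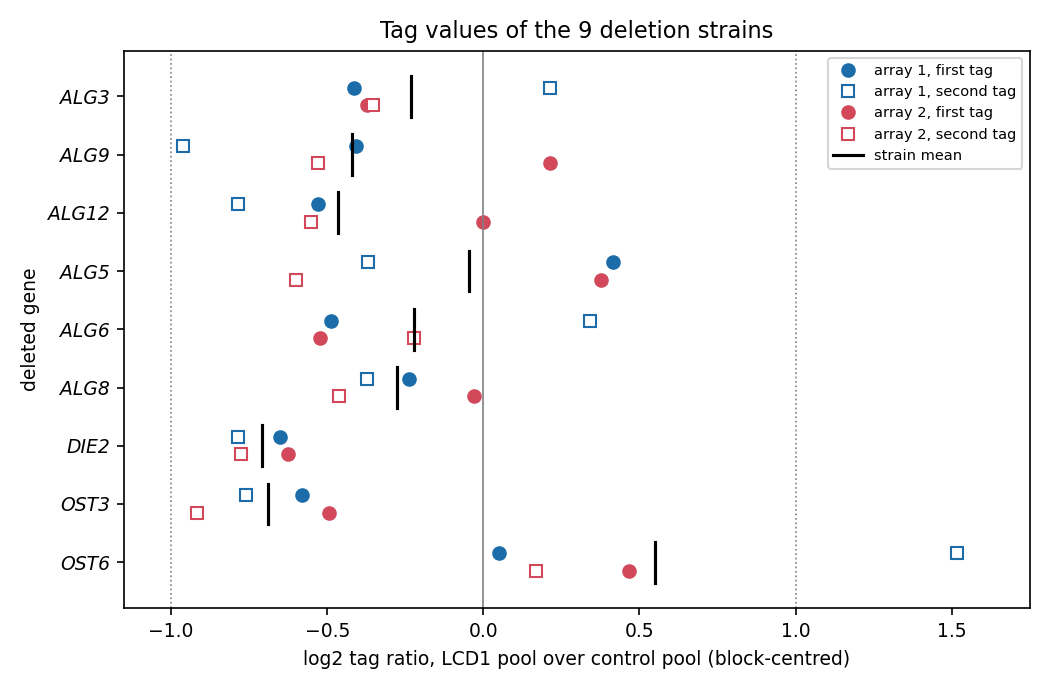
Block-centred log2 tag ratios (LCD1 pool over control pool, horizontal axis) of the 9 deletion strains (rows), with circles for the first tag, squares for the second, colour for the array, a black line for the strain mean, and dotted lines at 2-fold. All 4 values of DIE2 lie between -0.79 and -0.63 and those of OST3 between -0.92 and -0.49, while OST6 lies right of 0 with 1 reading at 1.52.

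The strains of the mannosylation steps had means of -0.47 to -0.23. ALG3 encodes the enzyme that adds the first mannose in the ER lumen, ALG12 the enzyme that adds a later branch mannose, and ALG9 the enzyme that acts both before and after Alg12. The ALG3 strain read -0.10 on array 1 and -0.36 on array 2, a mean of -0.23 ± 0.19. Its first tag gave -0.41 and -0.37 and its second tag 0.21 and -0.35 on arrays 1 and 2, so the second tag on array 1 alone was above 0. The ALG9 strain read -0.69 and -0.16, a mean of -0.42 ± 0.37. Here the second tag, at -0.96 and -0.53, lay below the first, at -0.41 and 0.21, on both arrays. The ALG12 strain read -0.66 and -0.28, a mean of -0.47 ± 0.27. Its second tag gave -0.79 and -0.55 and its first tag -0.53 and 0, the last equal to the median of the block. Both ALG9 and ALG12 were further below 0 on array 1 than on array 2. The second tag was below the first on both arrays in ALG9 and ALG12, as it also was in ALG5, ALG8, DIE2 and OST3. How many of all strains had that order of tags was not counted. The limma adjusted p values were 0.383 for ALG3, 0.287 for ALG9 and 0.225 for ALG12.

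Of the glucosylation strains, that without DIE2 stood furthest below 0 on both arrays and with either tag. ALG5 encodes the synthase of dolichyl phosphate glucose, the donor for the steps that ALG6, ALG8 and DIE2 carry out in that order. DIE2, also named ALG10, adds the terminal glucose that OST recognises. The means were -0.045 ± 0.096 for ALG5, -0.22 ± 0.21 for ALG6, -0.28 ± 0.042 for ALG8 and -0.71 ± 0.013 for DIE2. On single arrays ALG5 read 0.023 and -0.11, ALG6 -0.073 and -0.37, ALG8 -0.31 and -0.25, and DIE2 -0.72 and -0.70. The DIE2 values lay below all those of the other 3. The values of ALG6 overlapped those of ALG5 and those of ALG8, while ALG5 and ALG8 did not overlap. ALG5 was the highest of these strains on both arrays. The order of ALG6 and ALG8 was not stable, since ALG8 was below ALG6 on array 1 and ALG6 below ALG8 on array 2.

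The DIE2 strain was the steadiest of the 9. On arrays 1 and 2 its first tag gave -0.65 and -0.63, its second -0.79 and -0.77. These 4 values spanned 0.16, where the median span over all strains with 4 values was 0.68, which put DIE2 at percentile 3.7 of spans. It ranked 266 of 5325 from the bottom, 306 on array 1 and 323 on array 2. The limma interval (95%) ran from -1.07 to -0.35, with an unadjusted p of 0.00673 and an adjusted p of 0.135. DIE2 minus ALG8 was -0.41 on array 1 and -0.45 on array 2, and DIE2 minus ALG6 was -0.65 and -0.33. Both differences had the same sign on both arrays, yet an exact sign-flip test of 2 arrays cannot give a two-sided p below 0.5.

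The tags of ALG8 had 1 sign and those of ALG6 and ALG5 did not. ALG8 gave -0.24 and -0.030 with its first tag and -0.37 and -0.46 with its second. ALG6 gave -0.49 and -0.52 with its first tag, and 0.34 and -0.22 with its second. The mean of ALG6 therefore rested on the first tag, and with the second tag alone it was 0.060. ALG5 gave 0.42 and 0.38 with its first tag on arrays 1 and 2, but -0.37 and -0.60 with its second, so that the near-zero mean was the average of tags that disagreed on both arrays. The limma adjusted p values were 0.836 for ALG5, 0.408 for ALG6 and 0.286 for ALG8.

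OST3 and OST6 stood apart. They encode alternative subunits of OST, related thioredoxin-like proteins that each mark a form of the enzyme. The OST3 strain read -0.67 on array 1 and -0.71 on array 2, a mean of -0.69 ± 0.024. Its first tag gave -0.58 and -0.49 and its second -0.76 and -0.92, all below 0. The OST6 strain read 0.78 and 0.32, a mean of 0.55 ± 0.33. Its first tag gave 0.0495 and 0.47 and its second 1.52 and 0.17, all above 0. The groups of 4 tag values did not overlap. OST3 minus OST6 was -1.46 on array 1 and -1.02 on array 2, a mean of -1.24 ± 0.30, and the difference had the same sign on both tags (-0.63 and -0.96 for the first, -2.28 and -1.09 for the second). The exact sign-flip test again cannot go below a two-sided p of 0.5.

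OST3 ranked 277 of 5325 from the bottom and OST6 ranked 526 from the top. The limma intervals (95%) ran from -1.05 to -0.33 for OST3 and from 0.033 to 1.07 for OST6, with unadjusted p values of 0.00744 and 0.0423 and adjusted p values of 0.136 and 0.211. The largest reading of OST6, 1.52 for the second tag on array 1, stood 1.05 above the next of its 4 readings. The first tag alone gave OST6 a mean of 0.26, and array 2 alone gave 0.32.

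**Figure D2:**
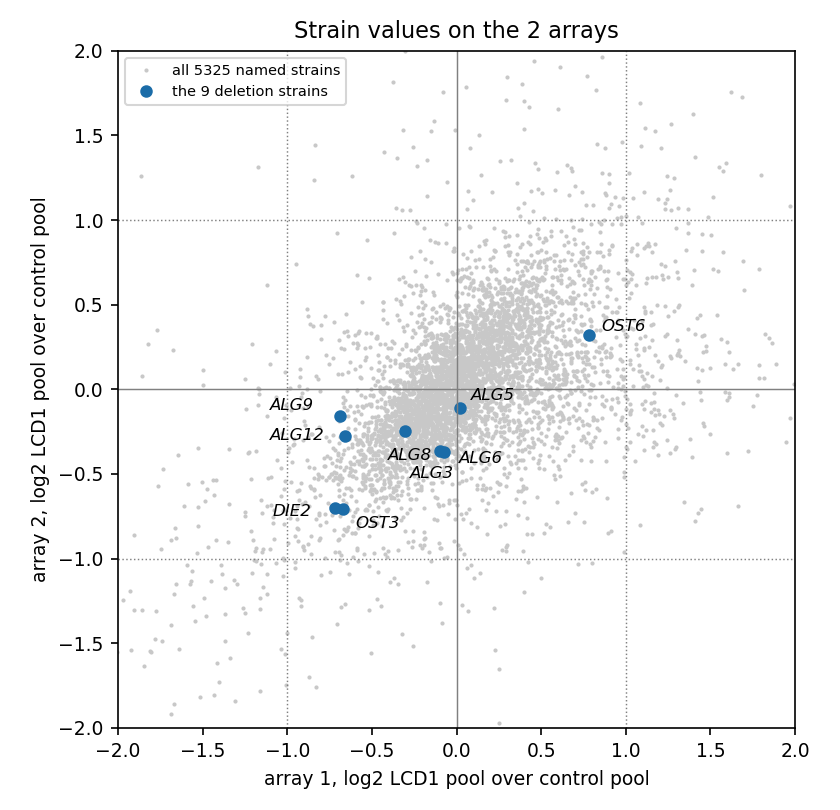
Strain values on array 1 (horizontal) and array 2 (vertical), both log2 of LCD1 pool over control pool, for all 5325 named strains (grey, 86 lie outside the axes) and the 9 glycan assembly and transfer strains (blue), with dotted lines at 2-fold. DIE2 and OST3 lie side by side near -0.7 on both arrays, ALG9 and ALG12 are further below 0 on array 1 than on array 2, and OST6 is alone in the upper right.

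In order from the lowest mean, the strains ran DIE2, OST3, ALG12, ALG9, ALG8, ALG3, ALG6, ALG5, OST6. Neighbours in this order overlapped over the arrays in all but the pairs OST3 with ALG12 and ALG5 with OST6. The gap of OST3 to ALG12, 0.22, was smaller than the SD of ALG12, and the gap of ALG5 to OST6, 0.60, was larger than the SD of OST6. The median absolute gap between arrays was 0.26 for the 9 strain values and 0.22 for all strains. For single tags it was 0.087 with the first and 0.23 with the second for the 9 strains, against 0.27 and 0.23 for all strains. Between the tags it was 0.55 on array 1 and 0.42 on array 2 for the 9 strains, against 0.38 and 0.34 for all strains.

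Repeat features gave a direct view of how well a tag was read. ALG3, ALG5 and OST3 had 6 features in each block, and each of the other 6 strains had 1. For OST3 the 6 features of the first tag lay between -0.65 and -0.52 on array 1 and between -0.59 and -0.41 on array 2, and those of the second tag between -0.82 and -0.72 and between -0.97 and -0.87. Every one of its 24 readings was below 0. Its feature SD of 0.041 for the second tag on array 2 was at percentile 1.6 among 792 strains with at least 6 features there, whose median was 0.12. The first tag on array 2 was also at percentile 1.6. On array 1 the SD was at percentile 32.4 for the first tag and 10.1 for the second.

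The first tag of ALG5 was the opposite case. On array 1 its 6 features ran from -0.87 to 1.39, an SD of 0.90 at percentile 97.7 of 787 strains, against a median SD of 0.075. On array 2 they ran from -0.10 to 0.72. Its second tag was tighter, between -0.44 and -0.14 on array 1 and between -0.77 and -0.46 on array 2, so that all 12 of those readings were below 0. For ALG3 the first tag was tight on array 1, with an SD of 0.039, but not on array 2, with an SD of 0.23 at percentile 72.4. All 12 readings of that tag over both arrays were below 0. The second tag ran from -0.72 to 1.30 on array 1, with an SD of 0.68. The reading of ALG3 above 0 was thus the mean of 6 features of both signs. On array 2 the second tag also scattered, from -0.82 to 0.032, with an SD of 0.31 at percentile 87.

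**Figure D3:**
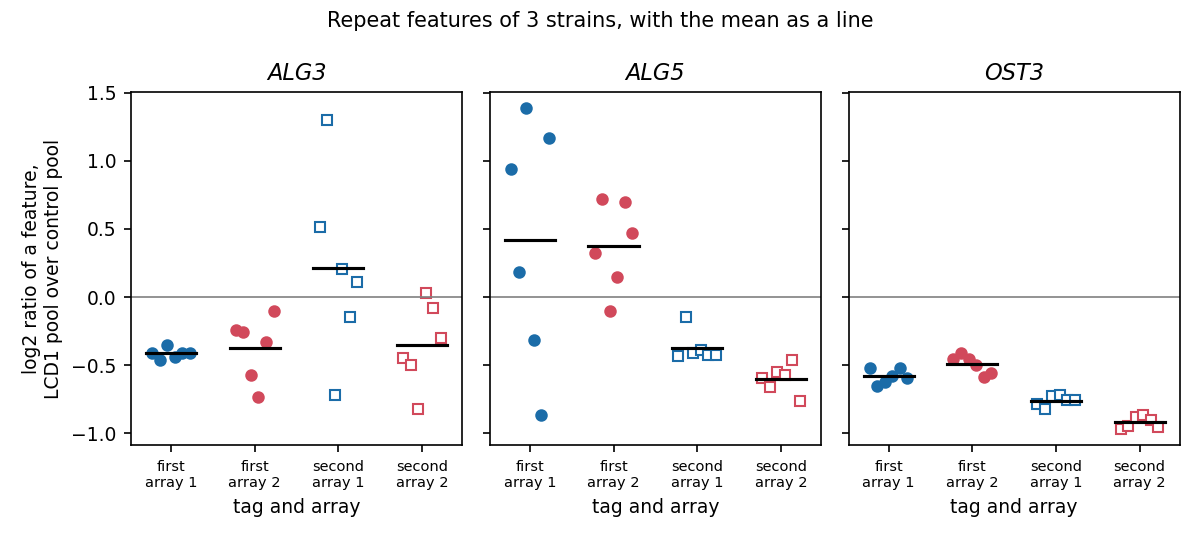
Log2 ratios of single features (LCD1 pool over control pool, centred as above, vertical axis) for the strains without ALG3, ALG5 and OST3, by tag and array, with the mean as a line. The 24 OST3 readings form tight sets between -0.97 and -0.41, whereas the first tag of ALG5 and the second tag of ALG3 on array 1 scatter across 0.

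Other genes of the assembly and transfer pathway gave mixed values. They are the early cytosolic steps, the sugar and dolichol donors and the remaining OST subunits, and 22 of the 24 listed had values. The median was -0.15 (-0.18 on array 1 and -0.066 on array 2). The size rule took 2 of 22 as lower (all strains 1.82%) and 0 as higher (all strains 0.695%). The 2 were PSA1 (-1.47 ± 0.44), which makes GDP-mannose, and DPM1 (-1.29 ± 0.35), which makes dolichyl phosphate mannose, the donor that Alg3, Alg9 and Alg12 use. Both genes are essential, so haploids without them should be missing from both pools, and the readings are tag ratios without a measure of growth. PSA1 was below 0 on all 4 tag values, and DPM1 read -2.48 and -3 with the first tag but 0.41 and -0.063 with the second. The same limit holds for 17 of the 22. Of those 17, 10 had opposite signs on the arrays, against 1 of the 9 strains described here. Among all named strains, 34.0% were below 0 on both arrays and 37.7% were above 0 on both. The 17 had a median span of 1.82 over their 4 tag values, against 0.79 for the 9 strains. The median of the 17 was -0.21. The other 5 listed strains, whose genes are not essential, had a median of 0.30, and the size rule took 0 of them in either direction.

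Besides OST3 and OST6, 2 further OST subunits can be deleted from haploids, and their values were looked up after those of OST3 and OST6 were seen. The strain without OST5 read 1.005 and 0.71, a mean of 0.85 ± 0.21, above 0 on all 4 tag values. The strain without OST4, a very small subunit, read 0.25 and 0.012, with the first tag above 0 and the second below 0 on both arrays. Of the 4 dispensable OST subunits, the OST3 strain was thus the 1 below 0 on both arrays. Neither OST4 nor OST5 passed the size rule, and their limma adjusted p values were 0.582 and 0.135.

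Of the genes that trim the finished glycan or act in glycoprotein quality control in the ER, all 22 had values, and 0 passed the size rule in either direction. Of these 6 means were below 0 and 16 above, where 54.1% of all strains were above, and no test was made. The median was 0.23 over both arrays, 0.26 on array 1 and 0.066 on array 2. The largest means were those of KRE5 (-0.91 ± 0.065), a gene related to the glucosyltransferase of ER quality control and needed for cell wall glucan, and of DFM1 (0.82 ± 0.19), a Derlin of ER-associated degradation. KRE5 read -2.28 and -2.16 with the first tag and 0.36 and 0.43 with the second, so its mean averaged tags of opposite sign. Whether haploids without KRE5 were present in either pool was not tested. The glucosidase genes, also looked up after their values were seen, remove the glucoses that Alg6, Alg8 and Die2 add. CWH41, which removes the terminal glucose, stood at -0.059 ± 0.12. ROT2, the catalytic subunit of the next glucosidase, stood at -0.57 ± 0.14 with all 4 tag values below 0, and its partner subunit GTB1 at 0.44 ± 0.037.

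The protein O-mannosyltransferases, which use the same mannose donor as Alg3, Alg9 and Alg12, had a median of -0.085 over 6 of 7 listed strains (0.087 on array 1 and -0.11 on array 2), and 0 passed the size rule. Their largest means were those of PMT6 (0.73 ± 0.49) and PMT1 (-0.67 ± 0.055), and PMT1 was below 0 on all 4 tag values. The Golgi mannosyltransferases, which extend N-glycans after they leave the ER, had a median of -0.085 over 16 strains (-0.28 on array 1 and -0.049 on array 2). The size rule took 2 of these as lower (all strains 1.82%) and 0 as higher (all strains 0.695%). The 2 were MNN11 (-1.76 ± 0.13) and HOC1 (-1.02 ± 0.0091), subunits of a mannan polymerase complex. On the lower side at 1.5-fold there were 5 of 16 Golgi strains and 2 of 9 assembly and transfer strains (all strains 4.34%). No test was made between these lists.

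**Figure D4:**
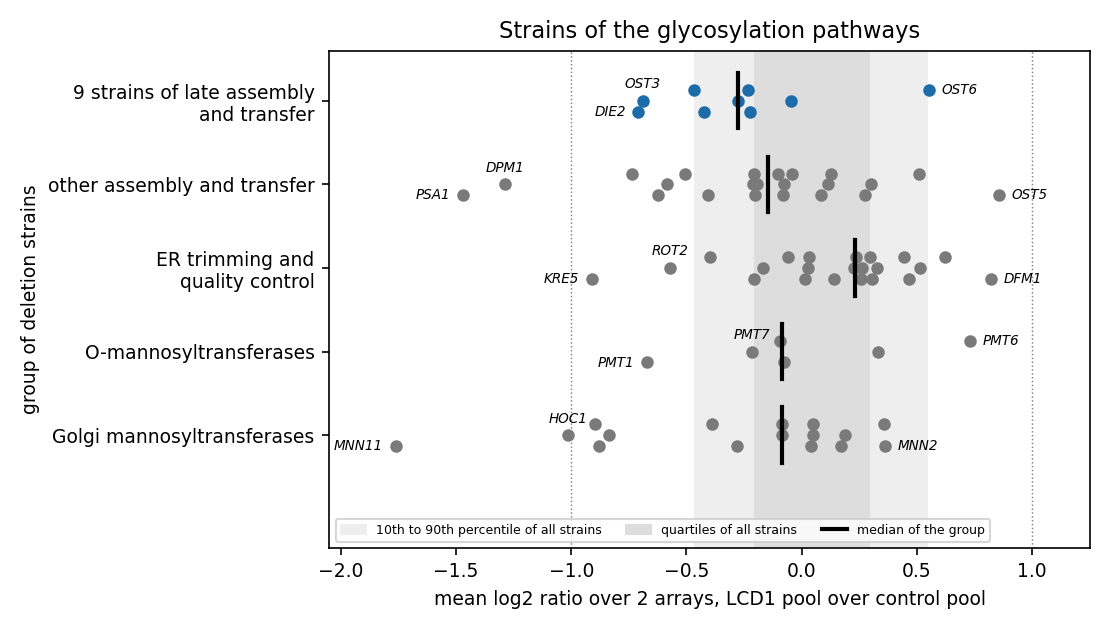
Mean log2 ratio over 2 arrays (LCD1 pool over control pool, horizontal axis) of the 9 late assembly and transfer strains (blue) and of 4 related lists (grey), 1 point a strain, with the list median as a black line, shaded bands for the quartiles and the 10th to 90th percentile of all named strains, and dotted lines at 2-fold. DIE2 and OST3 lie left of the wider band, with ALG12 at its left and OST6 at its right edge, while MNN11, PSA1, DPM1 and HOC1 are past the 2-fold line.

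The 9 genes lie on several chromosomes. By their locus names, ALG6, ALG8 and OST3 share a chromosome arm, and ALG9 and ALG12 share a chromosome. Deletions of the next gene on either side gave no common value. Of 18 such neighbours, 17 had values, from -0.42 (TCB1, beside OST3) to 0.80 (ZNG1, beside ALG12). In 12 of the 17 the sign of the mean matched that of the member, a count given without a test, as 45.9% of all strains had a mean below 0 and 54.1% above. CDC27 and CET1 among them are essential genes, so their readings measure no growth. For DIE2 the 1 neighbour with a value, AMA1, stood at -0.17 ± 0.0046, below 0 on both arrays, as DIE2 was. For OST3 they were LPX1 at -0.064 ± 0.051 and TCB1 at -0.42 ± 0.16, both below 0 on both arrays, as OST3 was. For OST6 they were YML020W at 0.31 ± 0.13 and YML018C at 0.35 ± 0.30, both above 0 on both arrays, as OST6 was. The 5 neighbours with a sign opposite to their member stood beside ALG3, ALG5, ALG8, ALG9 and ALG12. Any effect of position was not tested. The neighbours of ALG3 were CDC27 (-0.26) and YBL081W (0.33), those of ALG5 were CET1 (0.63) and NEW1 (-0.040), and those of ALG6 were RRP6 (-0.28) and YSP3 (-0.0083). For ALG8 they were MSA1 (0.42) and VPS5 (-0.16), for ALG9 ADE12 (-0.38) and MGS1 (0.53), and for ALG12, besides ZNG1, SSK2 (-0.27).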

How the data were processed

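Per the labels, tags were amplified from genomic DNA (the molecule field reads total RNA), hybridised to a Hopkins tag array and read with GenePix 5.1. The values the authors deposited are log2 ratios of the dyes, read as such from the values: on a linear scale 100% were whole hundredths within 0.001, which moves a log2 value of these strains by at most 0.023. Normalization: not given in the sources used here, nor is the numerator. Both columns had a median of -0.136.

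The platform annotation named 18794 of 22575 features, each for 1 gene. Symbols were updated through the R64 gene table (4 unmatched). Signs were turned, features of a gene averaged within each block (the first ends at feature 10971), blocks centred on their median, and tags averaged. No value was filtered or imputed, and 5309 strains had 4 tag values. limma 3.58.1 (R 4.3.3, lmFit with an intercept, eBayes, two-sided, Benjamini-Hochberg over 5325 strains) had 1 residual and 2.42 prior degrees of freedom, and was tested on simulated data. Plots used matplotlib 3.10.9.

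Named strains were the 9, strains of the 4 other lists past the size rule (otherwise the 2 with the largest absolute mean) and the chromosomal neighbours, with the exceptions given. Members and lists were chosen with earlier results of these data known. Listed genes without values are not analysed here. No coordinates are given because no array build is stated. Alternatives covered centring, tags, scale, features, threshold, direction and single arrays.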

Additional observations from a re-analysis of the deposited data

How the results depend on the processing

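No paired analysis was possible because both arrays belong to 1 group and each holds both pools. Apart from the direction, 8 alternatives that can move a strain value were run for each of the 9 strains, and 68 of 72 values kept their sign, with 7 strains keeping it throughout. Of the 8, centring on strains with all tag values moved the 9 means by at most 1.4e-06. The exceptions were ALG5, at 0.080 without centring, 0.40 with the first tag alone and 0.023 on array 1 alone, and ALG6, at 0.060 with the second tag alone. limma called 0 of the 9 in each fit (lowest adjusted p 0.0603, DIE2 with 4 tag values, where 24 of all strains were called, against 0 with strain means). The count past the size rule was 0 throughout, except 2 on the lower side at 1.5-fold. The median of the 9 was -0.15 without centring and -0.49 with the second tag alone. It was -0.31 on array 1 alone and -0.28 on array 2 alone. Without centring the median of all strains was 0.16. On either array alone 5 strains had both tag values below 0, against 3 over both arrays. The matching share of all strains on single arrays was not counted. With the direction turned, the median would be 0.28 and the strain values 0.23 for ALG3, 0.045 for ALG5, 0.22 for ALG6, 0.28 for ALG8, 0.42 for ALG9, 0.47 for ALG12, 0.71 for DIE2, 0.69 for OST3 and -0.55 for OST6. Strains of the 4 other lists past the size rule numbered 4, against 2 without centring and 2 without essential genes. They numbered 8 with the first tag alone, 10 on array 1 alone and 4 on array 2 alone. Of all named strains the rule took 97 as lower and 37 as higher, against 78 and 60 without centring. With the first tag alone it took 270 and 98 of all strains, on array 1 alone 185 and 253, and on array 2 alone 150 and 137. Neighbours that matched in sign numbered 7 instead of 12 with the second tag alone, 14 on array 1 alone and 10 on array 2 alone. The list without essential genes and the neighbour counts were alternatives chosen after seeing the data. The medians of the 4 other lists kept their sign in 28 of 32 cases, and each moved by over 1.5 times or turned on at least 1 single array, as given with the medians. The causes of these shifts were not tested.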
